A study of Sorghum propinquum with 2 samples.

Results

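A small set of 97 genes had at least 8 times the level in the rhizome of *Sorghum propinquum* that they had in the shoot. These genes were chosen by their measured values, out of 24371 listed genes, as those with at least 5 RPKM in the rhizome library and a rhizome RPKM at least 8 times the shoot RPKM, with shoot values of 0 allowed. RPKM is the number of reads of a gene per 1000 bases of its length and per 1000000 reads of the library. The direction and size of the difference were therefore fixed by the choice, and the levels and ratios below describe these genes and are not a test of them. Gene length and place in the order of gene IDs were not part of the ratio, although length enters the RPKM minimum.

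The study sequenced total RNA as Illumina libraries from 2 organs of a vegetative clone of *S. propinquum*, an unnamed accession with many tillers and strong rhizomes kept in a greenhouse. The rhizome group was 1 library of rhizomes and the shoot group was 1 library of shoots, both collected at the active tillering stage, when side shoots form. All plant material was this clone, and the labels give no genotype contrast or treatment and do not say how many plants were pooled. With 1 library per organ no value has an error between samples, no test across genes was possible, and a difference between the organs cannot be told apart from a difference between these samples. Ratios carry exact conditional binomial 95% intervals, which cover counting error only, and reads may not be independent molecules.

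A rhizome is a stem that grows sideways under the ground, with nodes, internodes, scale leaves and buds. Its tip can turn upward and become a leafy shoot, and its tissues store carbohydrate from which the plant regrows. *S. propinquum* is a wild perennial relative of grain sorghum, which lacks rhizomes, and crosses between them have been used to map rhizome traits. The shoot carries the green, photosynthetic tissue. The gene IDs are not paired with gene names or products in the files, so no role is given to any of the genes below, the organ labels were not checked against marker genes, and no pathway was counted.

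The rhizome library held 16862624 reads in listed genes and the shoot library 17153968. Of the 12826 genes with 5 RPKM or more in either library, the 97 genes made up 0.756%, and they made up 0.870% of the 11154 genes with at least 5 RPKM in the rhizome. In the other direction, an 8-fold or larger excess in the shoot was found for 670 genes, or 5.22% of the 12826. In whole organs, fewer cells of a type and less RNA per cell cannot be told apart.

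The 97 genes ranged from barely above the minimum to among the most abundant in the rhizome. Their median was 14.97 RPKM in the rhizome library and 0.820 RPKM in the shoot library. In the rhizome the lowest was 5.06 RPKM, the quartiles were 7.52 and 50.5 RPKM and the highest was 3245 RPKM. In the shoot the values ran from 0 to 104 RPKM. In the shoot, 57 of the 97 (58.8%) were under 1 RPKM and 16 were at 5 RPKM or more. The rule fixes part of this count, since a gene of the set under 8 RPKM in the rhizome must be under 1 RPKM in the shoot. The median for all 11154 genes with 5 RPKM or more in the rhizome was 14.5 RPKM, close to that of the set. Both groups are cut at the same minimum of 5 RPKM in the rhizome, so this closeness is a description only.

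High levels were more common in the set than the median shows. At 100 RPKM or more in the rhizome, 14 of 685 genes (2.04%) belonged to the set, against 34 of 3725 (0.913%) at 5 to 10 RPKM. The share was 0.674% at 10 to 20 RPKM, 0.620% at 20 to 50 RPKM and 1.23% at 50 to 100 RPKM, so it did not rise steadily with level. Among the 100 genes with the highest RPKM of each library, 5 of the rhizome library and 0 of the shoot library were in the set. These shares are a description, since the rule used the rhizome level and its ratio to the shoot level. The 8-fold limit leaves hardly any room for a gene of the set among the highest shoot values.

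**Figure D1:**
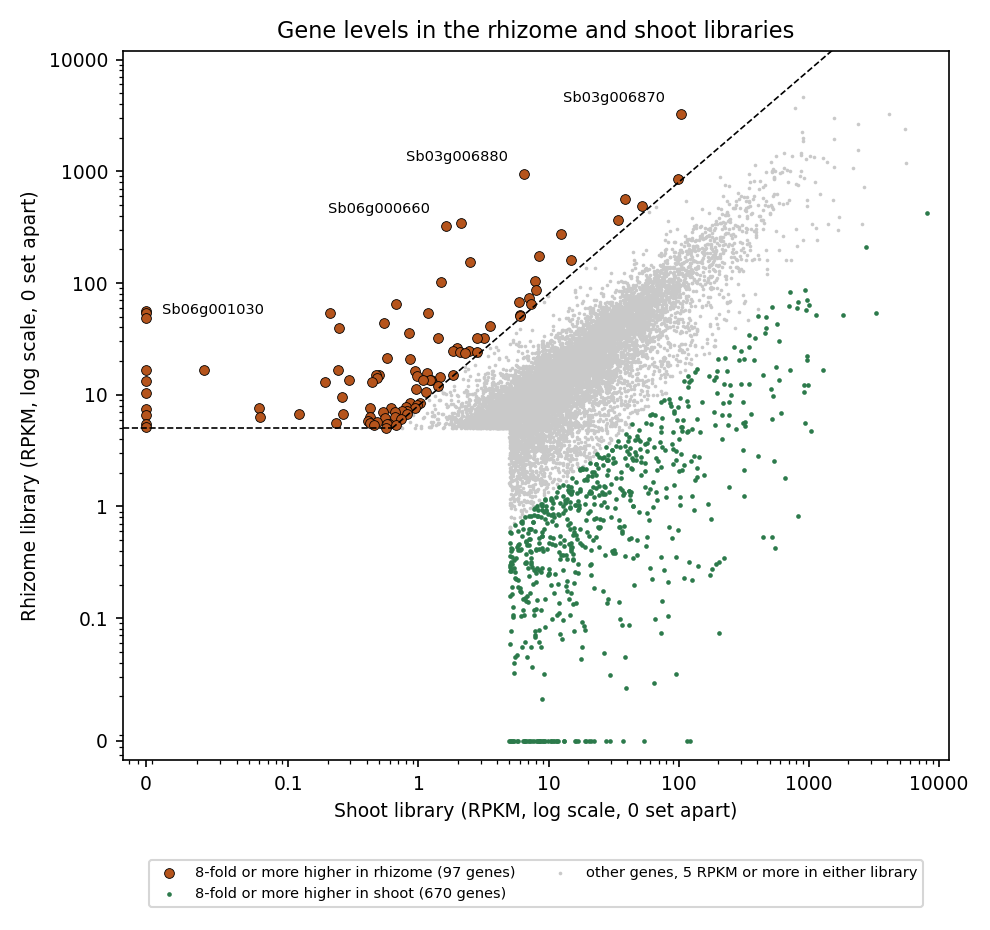
RPKM of each gene with 5 RPKM or more in either library, in the shoot library on the horizontal axis and in the rhizome library on the vertical axis, both on log scales with 0 set apart. Orange points are the 97 genes at least 8-fold higher in the rhizome, green points the 670 genes at least 8-fold higher in the shoot, and dashed lines the limits of the choice; the orange points reach 3245 RPKM in the rhizome, and 10 of them lie at 0 in the shoot.

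Few genes carried most of the reads of the set. Together the 97 genes took 232192 rhizome reads, or 1.38% of the library (interval 1.371% to 1.383%), and 15657 shoot reads, or 0.0913% (0.0898% to 0.0927%). The 5 genes with the most rhizome reads held 57.6% of the set's rhizome reads and the top 10 held 75.4%. Without these 5, the other 92 genes took 0.584% of the rhizome library and 0.0316% of the shoot library. The gap between the organs in summed reads was 15.1-fold for the 97 genes and 18.5-fold for the 92; the choice fixes both at 8-fold or more.

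The most abundant gene of the set by RPKM was Sb03g006870, listed at 460 bases. It had 3245 RPKM from 25170 reads in the rhizome library, against 104 RPKM from 824 reads in the shoot library. The ratio was 31.1 (interval 29.0 to 33.3), and the gene was at rank 4 of all genes by RPKM in the rhizome and at rank 728 in the shoot. The gene after it in ID order, Sb03g006880, came second in the set, with 948 RPKM from 7304 reads in the rhizome, against 6.51 RPKM from 51 reads in the shoot (146-fold, 111 to 196). Its rank was 39 in the rhizome and 9770 in the shoot.

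The next 3 genes by level were longer and less skewed towards the rhizome. Sb04g009670, at 2664 bases, had 850 RPKM from 38179 reads in the rhizome, against 98.6 RPKM from 4504 reads in the shoot, a ratio of 8.62 (8.36 to 8.90). It had the most reads of the set in both libraries. Sb02g006320, at 2980 bases, had 562 RPKM from 28247 reads in the rhizome, against 38.8 RPKM from 1983 reads in the shoot, or 14.5-fold (13.8 to 15.2). Sb09g025900, at 3177 bases, had 490 RPKM from 26236 reads in the rhizome, against 51.8 RPKM from 2822 reads in the shoot, or 9.46-fold (9.10 to 9.84). All 3 were thus well measured in the shoot too, and the interval of Sb04g009670 lay close above the threshold of 8. Under TMM and median-of-ratios scaling, which allow for a shift of the libraries as a whole, Sb04g009670 was at 7.65-fold and left the set.

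Among the 10 highest levels, Sb01g039390 and Sb06g000660 stood out by their low shoot values. Sb01g039390, at 2717 bases, had 345 RPKM from 15805 reads in the rhizome, against 2.12 RPKM from 99 reads in the shoot, a ratio of 162 (133 to 200). Sb06g000660, at 2308 bases, had 325 RPKM from 12642 reads in the rhizome, against 1.64 RPKM from 65 reads in the shoot, a ratio of 198 (155 to 257). Each ranked high in the rhizome by RPKM, at 147 and 162, but far down the shoot list, at 15507 and 16550. The remaining 3 were nearer to the middle of the set. Sb04g037800 had 367 RPKM in the rhizome and 34.3 RPKM in the shoot (10.7-fold, 9.83 to 11.6). Sb08g002950 had 273 RPKM in the rhizome and 12.5 RPKM in the shoot (21.8-fold, 17.7 to 27.0). Sb03g003530 had 174 RPKM in the rhizome and 8.41 RPKM in the shoot (20.6-fold, 16.3 to 26.5).

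The ratios of rhizome to shoot thinned out above the threshold. Of the 97 genes, 24 were 8- to 10-fold higher in the rhizome, 30 were 10- to 16-fold, 13 were 16- to 32-fold, 7 were 32- to 64-fold, 6 were 64- to 128-fold and 7 were above that. The other 10 had 0 shoot reads and no finite ratio. Placing those 10 above all others, the median ratio was 13.4-fold. The counting interval lay wholly at or above 8-fold for 60 genes (61.9%), and for 96 of the 97 it lay wholly above 4-fold. Of the 24 genes between 8- and 10-fold, 2 had such an interval above 8, against 15 of the 30 between 10- and 16-fold and all 43 of the rest. The 37 genes whose interval reached below 8 had a median of 258 rhizome reads, against 618.5 for the 60. For these 37 the counts do not fix on which side of 8-fold the ratio lies.

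**Figure D2:**
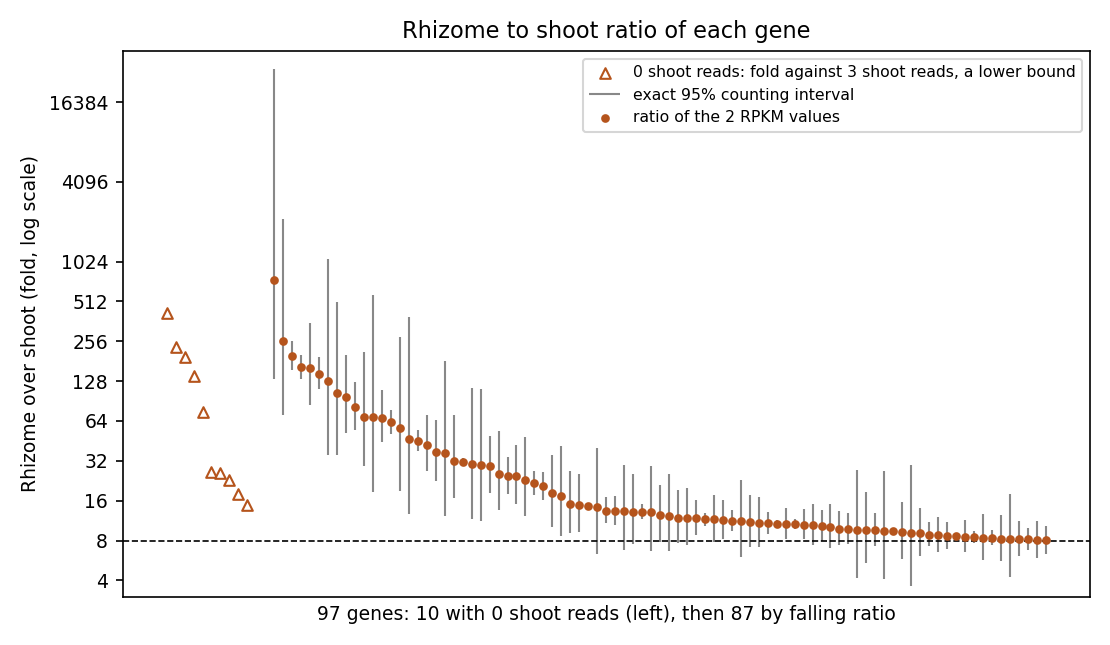
Rhizome over shoot ratio of the 97 genes on a log scale, with the 10 genes at 0 shoot reads on the left as open triangles (a lower bound against 3 shoot reads) and the other 87 sorted by ratio, each with its exact 95% counting interval as a bar; the dashed line is 8-fold. The intervals of 60 genes lie wholly at or above the line, and those of 37 cross it.

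The genes at the edge of the set show how fine the limit was. The 3 nearest inside it were Sb03g027510 at 8.02-fold (5.41 RPKM in the rhizome and 0.675 RPKM in the shoot), Sb01g007440 at 8.09-fold (7.62 and 0.942 RPKM in the same order) and Sb10g008200 at 8.17-fold (15.1 and 1.85 RPKM). The 3 nearest below 8-fold were Sb03g030900 at 7.97-fold (5.13 RPKM in the rhizome and 0.644 RPKM in the shoot), Sb07g021930 at 7.72-fold (6.05 and 0.784 RPKM) and Sb02g025775 at 7.71-fold (17.7 and 2.29 RPKM). Just under 5 RPKM in the rhizome, at 4.95 to 4.96 RPKM, lay 3 further genes with ratios of 8.65 to 24.8.

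Beyond the genes at 0 shoot reads, the 2 highest ratios came from moderate rhizome levels. Sb07g008860 had 16.6 RPKM from 730 reads in the rhizome, against 0.0223 RPKM from 1 read in the shoot, a ratio of 743 with an interval from 133 to 29371. Sb04g007600 had 54.2 RPKM from 505 reads in the rhizome, against 0.211 RPKM from 2 reads in the shoot, or 257-fold (70.7 to 2127). The shoot side of both rests on 1 or 2 reads, so the size of these ratios is loosely known. Sb01g010460 had 39.3 RPKM from 1413 reads in the rhizome, against 0.246 RPKM from 9 reads in the shoot, or 160-fold (83.9 to 350). Sb01g041180 had 64.5 RPKM from 950 reads in the rhizome, against 0.667 RPKM from 10 reads in the shoot, or 96.6-fold (52.3 to 202). Further genes with high lower bounds were better covered in the shoot. Sb01g036420 had 43.8 RPKM from 1995 reads in the rhizome, against 0.539 RPKM from 25 reads in the shoot, or 81.2-fold (54.8 to 126). Sb04g006890 had 101 RPKM from 1401 reads in the rhizome, against 1.49 RPKM from 21 reads in the shoot, or 67.9-fold (44.2 to 110). Sb09g025730 had 155 RPKM from 5662 reads in the rhizome, against 2.48 RPKM from 92 reads in the shoot, or 62.6-fold (51.0 to 77.8).

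By the rule of choice, the 10 genes of the set without a shoot read are all those that reached 5 RPKM in the rhizome library and were listed at 0 in the shoot library. A count of 0 allows up to 3 reads, or 0.175 reads per 1000000 in the shoot library, so each has a lower bound in place of a ratio. The bound takes the rhizome count as it stands, and the exact interval, which also covers counting error in the rhizome, starts lower. The highest bound was that of Sb06g001030, with 48.8 RPKM from 1224 reads in the rhizome, at least 415-fold higher than in the shoot by the 3-read limit, with the interval starting at 337. Sb06g017850 followed, with 56.6 RPKM from 681 reads in the rhizome and at least 231-fold by that limit (interval from 187). Sb07g008870 had 16.6 RPKM from 570 reads in the rhizome and at least 193-fold (interval from 157). These 3 had ample rhizome reads to show a shoot level well below 1 in 100 of theirs.

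For the other 7 genes at 0 in the shoot the bound was lower. Sb03g006920 had 54.1 RPKM from 414 reads in the rhizome and was at least 140-fold higher there by the 3-read limit (interval from 114), and Sb04g030040 had 13.2 RPKM from 220 reads and was at least 74.6-fold higher (interval from 60.2). The remaining 5, Sb06g022090, Sb04g007585, Sb01g026800, Sb02g010080 and Sb0737s002010, had 44 to 77 reads and 5.13 to 10.4 RPKM in the rhizome, with bounds from 14.9-fold to 26.1-fold and intervals that start between 11.6 and 20.7. At that depth a shoot level of a few percent of the rhizome level was not detectable. The 10 genes were short, with a median length of 610 bases against 1456 bases for the 87 with at least 1 shoot read. Their median of 148.5 rhizome reads was also below the 447 of the 87, and a gene with fewer reads reaches 0 in the other library more easily.

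The set as a whole had short deposited lengths. The median was 1296 bases, with quartiles of 714 and 2543 and a range of 402 to 10340 bases. All 11154 genes with at least 5 RPKM in the rhizome had a median of 2618 bases, and the 670 genes at least 8-fold higher in the shoot had a median of 1366.5 bases. The short lengths were thus shared by the genes skewed towards either organ. Under 1000 bases lay 37 of the 97 genes (38.1%) and 233 of the 670 (34.8%), against 15.5% of the 11154.

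By length class, the share of genes in the set declined as length increased. Of the genes with 5 RPKM or more in either library, it was 15 of 750 (2.0%) under 500 bases, 22 of 1375 (1.60%) from 500 to 1000, 22 of 2871 (0.766%) from 1000 to 2000, 30 of 4714 (0.636%) from 2000 to 4000, and 8 of 3116 (0.257%) at 4000 bases or more. The level of the median depends on the RPKM minimum, which a short gene passes with fewer reads. With a minimum of 5 CPM (5 reads per 1000000) in its place, 111 genes passed, with a median of 1965 bases against 3021 bases for the 14819 genes at 5 CPM or more in the rhizome. The order of these medians stayed, and the gap narrowed in proportion.

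**Figure D3:**
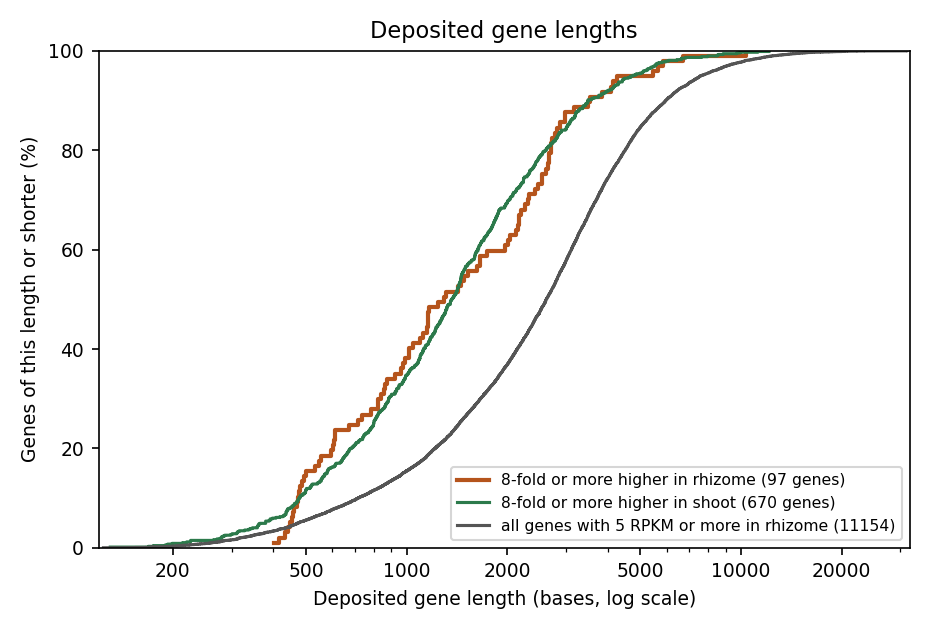
Cumulative share of genes, in percent, by deposited gene length on a log scale, for the 97 genes at least 8-fold higher in the rhizome (orange), the 670 at least 8-fold higher in the shoot (green) and all 11154 genes with at least 5 RPKM in the rhizome (grey). The orange and green curves run close together and left of the grey one, with medians of 1296, 1366.5 and 2618 bases.

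The shortest genes covered a wide range of rhizome levels. Of the 15 genes under 500 bases, 4 were above 100 RPKM in the rhizome, namely Sb03g006870, Sb03g006880, Sb08g002950 and Sb03g003530. Sb03g006920 and Sb01g050420 came next, with 414 and 224 reads in the rhizome, against 0 and 10 reads in the shoot. The other 9 had 44 to 137 rhizome reads. At the other end, the longest gene of the set was Sb0013s006040, at 10340 bases, with 5.63 RPKM from 982 reads in the rhizome, against 0.231 RPKM from 41 reads in the shoot, or 24.4-fold (17.8 to 34.2). The highest level of a gene of 4000 bases or more was that of Sb03g011240, at 5864 bases, with 53.5 RPKM from 5287 reads in the rhizome, against 1.18 RPKM from 119 reads in the shoot, or 45.2-fold (37.7 to 54.7). Large ratios were therefore present at both ends of the length range. Sb01g050420, Sb0013s006040 and Sb03g011240 were picked after their values were seen.

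The genes of the set were spread over all 10 chromosomes, by the chromosome number in the ID. Of the 97, 95 carry such a number and 2, Sb0013s006040 and Sb0737s002010, do not. Chromosome 1 held the most, 20, or 0.805% of its 2485 genes with 5 RPKM or more in either library. The highest share was on chromosome 5, with 8 of 553 genes (1.45%, exact binomial interval over genes 0.627% to 2.83%), and the next on chromosome 7, with 10 of 848 (1.18%, 0.567% to 2.16%). The lowest were 0.490% on chromosome 2 (8 of 1634) and 0.490% on chromosome 10 (5 of 1021). The intervals of all 10 chromosomes held the share over all genes, 0.756%. They treat genes as independent draws, which neighbouring genes of the set may not be, so they are no test of an even spread.

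**Figure D4:**
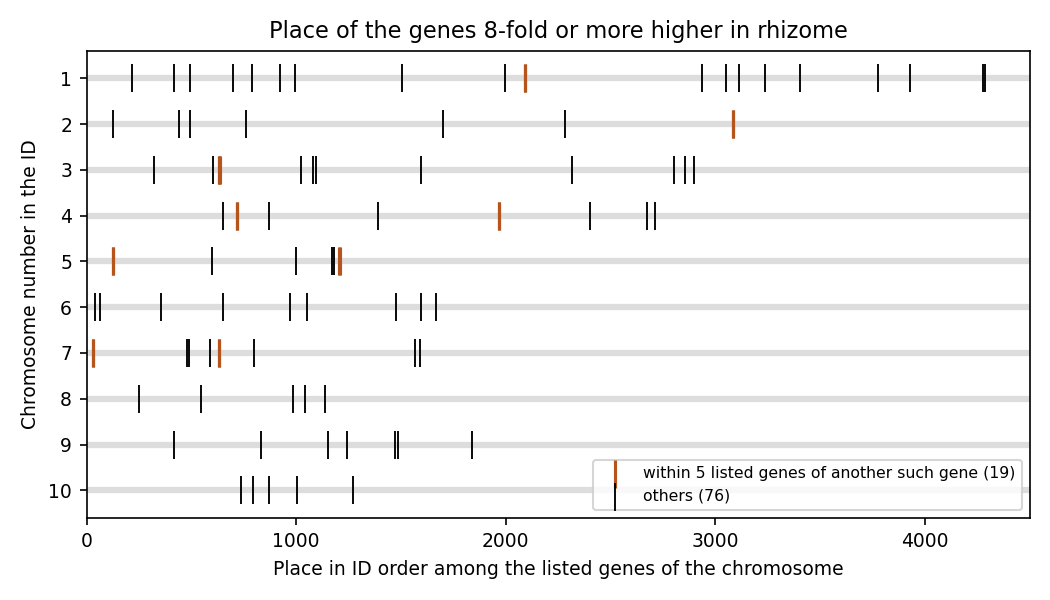
Place of the 95 genes with a chromosome number along each chromosome, as the rank in ID order among all listed genes of that chromosome (horizontal axis) by chromosome number (vertical axis). Each tick is a gene; the 19 orange ticks lie within 5 listed genes of another gene of the set, and the 76 black ticks do not.

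Most genes of the set stood alone in ID order, and a few stood side by side. Among the 24215 listed genes with a chromosome number, 6 pairs of next neighbours were both in the set, which took in 12 of the 95 genes (12.6%). For the genes at least 8-fold higher in the shoot, a larger set in which chance neighbours are more frequent, 60 such pairs took in 107 of 666 (16.1%). With 95 and 666 of the 24215 genes in the 2 sets, these percentages cannot be compared directly. The number of pairs due to chance was not worked out. Allowing up to 5 steps in ID order, 19 genes of the set formed 9 groups, of which 8 had 2 members and 1 had 3. Whether neighbouring genes are copies of each other is not given in the files. Reads of near-identical copies may have been split or shared between them by the counting, which was not tested.

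The group of 3 lay on chromosome 3 in a stretch of short genes and held the most abundant genes of the set. From Sb03g006870 to Sb03g006920 the files list 7 genes in a row, all 454 to 499 bases long. Its 3 members, Sb03g006870, Sb03g006880 and Sb03g006920, differed in length by at most 1.01-fold and in rhizome RPKM by up to 60.0-fold. The 4 genes between them did not share the pattern. Sb03g006890, at 460 bases like the first, had 5 reads (0.645 RPKM) in the rhizome and 7 reads (0.887 RPKM) in the shoot. Sb03g006900 had 19 reads (2.48 RPKM) in the rhizome and 7 reads (0.899 RPKM) in the shoot. Sb03g006915 had 58 reads (7.20 RPKM) in the rhizome and 33 reads (4.02 RPKM) in the shoot. The remaining gene, Sb03g006910, went the other way, with 87 reads (10.3 RPKM) in the rhizome and 1670 reads (195 RPKM) in the shoot, a ratio of 18.9-fold higher in the shoot. A run of genes of nearly equal length thus held the gene at rank 4 of the rhizome by RPKM, a gene under 1 RPKM in both libraries, a gene with no shoot read and a gene skewed towards the shoot.

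The 2 pairs on chromosome 7 had few or no reads in the shoot. Sb07g008860 and Sb07g008870, at 2613 and 2036 bases, had nearly the same rhizome level, 16.57 and 16.60 RPKM, and 1 and 0 reads in the shoot. Both neighbours of this pair were outside the set, at 4.31 RPKM in the rhizome and 8.13 RPKM in the shoot for Sb07g008850 and at 16.4 and 15.2 RPKM in that order for Sb07g009300. The ID numbers jump between Sb07g008870 and Sb07g009300, so genes that are not listed may lie between them. The change was therefore abrupt from Sb07g008850 to Sb07g008860, and on the other side only among listed genes. In the other pair, Sb07g000510 had 7.67 RPKM from 254 reads in the rhizome, against 0.0593 RPKM from 2 reads in the shoot, or 129-fold (35.4 to 1073). Sb07g000520 had 14.1 RPKM from 516 reads in the rhizome, against 0.482 RPKM from 18 reads in the shoot, or 29.2-fold (18.3 to 49.6). The next gene, Sb07g000530, of 1966 bases against 1965 for Sb07g000510, had a ratio of 19.3 (5.0 to 165) and missed the set by its level of 1.15 RPKM. On the other side, Sb07g000500 had 2 reads in the rhizome and 86 in the shoot.

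The other 3 next-neighbour pairs lay on chromosomes 1, 4 and 5. Sb04g007585 and Sb04g007600, at 607 and 553 bases, had 77 and 505 reads in the rhizome and 0 and 2 reads in the shoot. The ID numbers leave a gap between these members of the set, so a gene that is not listed may lie there. The pair lay between longer genes, Sb04g007580 and Sb04g007610, whose ratios were 1.62 and 1.37. Sb01g026800 and Sb01g026810, at 601 and 2471 bases, had 6.61 and 6.34 RPKM in the rhizome and 0 and 0.425 RPKM in the shoot. Sb05g001550 and Sb05g001560, at 4077 and 2643 bases, had 7.69 and 26.5 RPKM in the rhizome and 0.801 and 1.96 RPKM in the shoot. Their ratios of 9.61 (7.29 to 12.9) and 13.5 (10.9 to 16.9) had overlapping intervals, and the genes on both sides, Sb05g001540 and Sb05g001570, had ratios of 1.04 and 1.37.

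In the 3 looser groups of 2, other genes lay between the members. Near the end of the ID order of chromosome 5, Sb05g026940 (8.27-fold, 5.65 to 12.5) and Sb05g026965 (9.26-fold, 5.75 to 15.8) had 2 genes between them at ratios of 1.12 and 0.945. The gene before them, Sb05g026930, was 6.61-fold higher in the rhizome, with 10.4 RPKM in the rhizome and 1.58 RPKM in the shoot, and the gene after them, Sb05g026970, was 3.50-fold higher. Of these 6 listed genes in a row, 4 were thus at least 3.50-fold higher in the rhizome. For 2 of the 4 the choice of the set fixed this. The limit of 3.50-fold was picked after the values were seen, and the share of all genes above it was not counted. On chromosome 2, Sb02g042790 (11.6-fold, 7.84 to 17.7) and Sb02g042840 (25.4-fold, 13.6 to 53.7) enclosed genes with at most 24 rhizome reads. On chromosome 4, Sb04g030040 (at least 74.6-fold by the 3-read limit) and Sb04g030070 (8.57-fold, 6.56 to 11.4) enclosed genes with ratios of 1.90 and 1.45. The intervals of Sb05g026940, Sb05g026965, Sb02g042790 and Sb04g030070 thus reach below 8-fold, so the counts do not fix these groups at that limit.

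**Figure D5:**
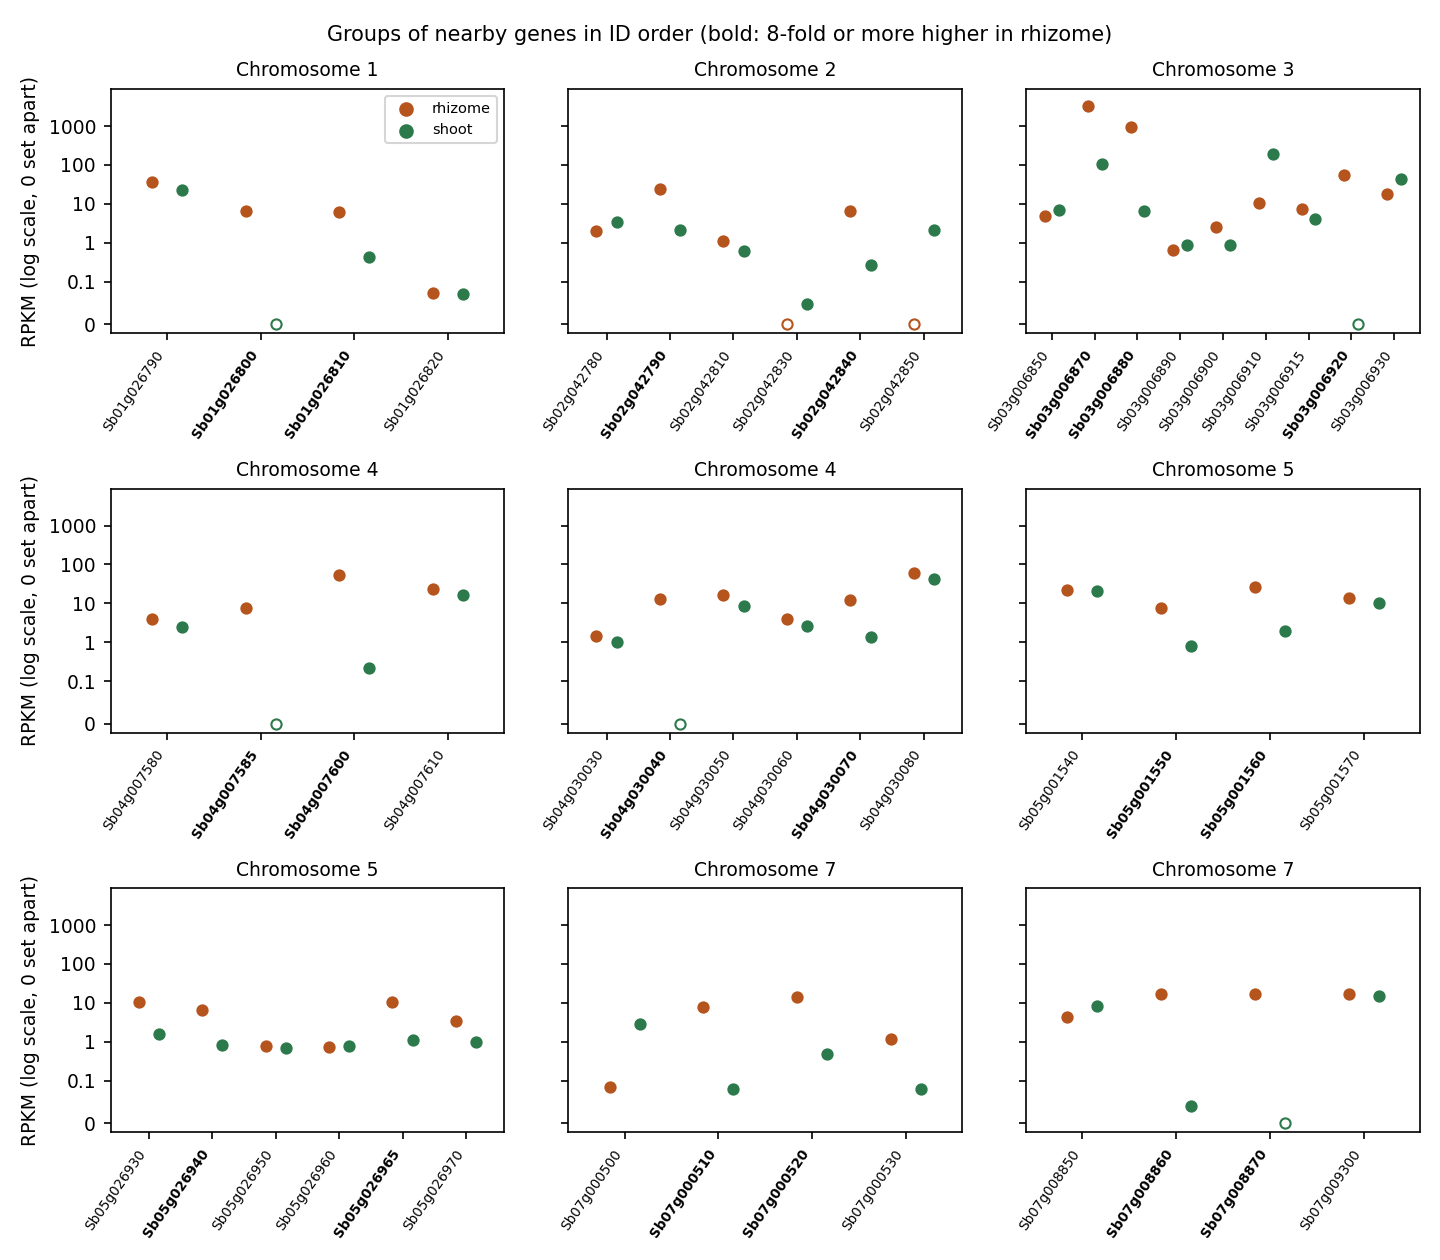
RPKM on a log scale, with 0 set apart as open circles, for each listed gene of the 9 groups in ID order and for the gene on each side, with the rhizome (orange) left of the shoot (green); names in bold are genes at least 8-fold higher in the rhizome. In most panels the genes outside the set have rhizome and shoot points close together, and in the chromosome 3 panel Sb03g006910 lies at 10.3 RPKM in the rhizome and 195 RPKM in the shoot.

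Among genes next to a gene of the set but outside it, 85 had 5 RPKM or more in either library. At least 4-fold higher in the rhizome were 3 of these (3.53%), against 1.80% of all 12826 such genes and 1.05% of those outside the set. At least 4-fold higher in the shoot were 6 (7.06%), against 9.02% of the 12826. The median log2 ratio of rhizome to shoot, over the 83 neighbours with 1 RPKM or more in both libraries, was 0.46, against 0.23 for the genes outside the set. With counts of 3 and 6 these shares are too coarse to set the neighbours apart from genes in general. The median was higher for the neighbours, and whether that sets them apart was not tested.

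In 3 places a gene of the set sat next to a gene at least 8-fold higher in the shoot. Sb10g008200 had 15.1 RPKM in the rhizome and 1.85 RPKM in the shoot, while Sb10g008190 before it had 0.0841 RPKM from 2 reads in the rhizome, against 9.43 RPKM from 228 reads in the shoot. Sb06g027890 had 5.38 RPKM in the rhizome and 0.456 RPKM in the shoot, next to Sb06g027900 with 0.432 RPKM in the rhizome and 14.9 RPKM in the shoot. Sb07g005670 had 13.5 RPKM in the rhizome and 1.22 RPKM in the shoot, next to Sb07g005660 with 3.23 RPKM in the rhizome and 79.0 RPKM in the shoot. The counting intervals of all 3 genes of the set reach below 8-fold. They were 6.76 to 9.95 for Sb10g008200, 7.36 to 19.9 for Sb06g027890 and 7.20 to 17.8 for Sb07g005670. Under TMM scaling Sb10g008200 was at 7.25-fold and left the set. Neighbouring genes with opposite skew therefore occurred in this pair of libraries, although the counts do not fix the 8-fold limit for these 3. Of the 24215 listed genes with a chromosome number, 666 were in the shoot-higher set and 95 in the rhizome set. A shoot-higher neighbour is thus more frequent by chance, and these 3 places cannot be set level with the 6 pairs above.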

How the data were processed

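Each table gives, per gene ID, a read count, an RPKM and the gene length in bases. The deposited counts are whole reads per gene, per the file headers and values. The authors' deposited RPKM was recomputed from counts, lengths and count-column totals and differed by less than 0.0001. The aligner, genome build, annotation, use of strand, the species the IDs describe and whether lengths include introns are not given in the sources used.

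Genes were selected at 5 RPKM and 8-fold without pseudocount. The members, rules and lists were chosen with earlier results of these data known. Genes were named by rank of level, by lower bound of the ratio, by 0 shoot reads, by next-neighbour place and by closeness to the threshold. The rule limited printed IDs to 2 where nothing pairs IDs with names; IDs beyond that, including the neighbours outside the set, are printed to identify the genes described and were picked after their values were seen. The product-name lists could not be filled, so 0 were used.

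A count of 0 was bounded by 3 reads, and IDs were ordered by chromosome and running number. No edgeR test was run, since 1 library per organ leaves no residual degrees of freedom. Alternatives were other thresholds, a pseudocount of 1 RPKM, a minimum of 100 reads, other scalings (TMM of edgeR 4.0.16 in R 4.3.3) and, added after seeing the data, a minimum of 5 CPM. The code used matplotlib 3.10.9, scipy 1.17.1, pandas 2.3.3 and numpy 2.4.6 in Python 3.11.15 and was tested on simulated data.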

Additional observations from a re-analysis of the deposited data

How the results depend on the processing

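The set of 97 genes changed most in size with the fold and RPKM thresholds, and scaling left as few as 81 of them. It held 231 genes at 4-fold, 43 at 16-fold, 218 at a minimum of 1 RPKM, 41 at 20 RPKM, 50 with a pseudocount of 1 RPKM and 60 with the interval wholly at or above 8. It held 81 under TMM and under median-of-ratios scaling, which lowered each log2 ratio of rhizome to shoot by 0.17, and 95 with the totals taken without the top 100 genes of each library. All of these 81 and 95 were among the 97. It held 86 with at least 100 rhizome reads and 111 with a minimum of 5 CPM. The median length of 1296 bases was 988 bases at 16-fold, outside the exact order-statistic interval of the median, and inside it under every other alternative run, up to 1965 bases at 5 CPM. The share of rhizome reads, 1.38%, was 3.17% at 4-fold, 0.544% at 16-fold, 1.42% at 1 RPKM, 1.28% at 20 RPKM, 1.26% with the pseudocount, 1.08% under TMM and median-of-ratios scaling, 1.371% without the abundant genes, 1.28% with the interval and 1.39% at 5 CPM. The 6 neighbour pairs were 12 at 4-fold, 14 at 1 RPKM and 1 at 20 RPKM, and 4 to 6 otherwise. A set that takes in all 97 genes and more cannot hold fewer pairs. The direction of the 35 genes named by rule was fixed by the choice, so its keeping under each alternative is no sign of stability.

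No paired analysis was possible because there is 1 sample in each organ, so no library was left out in turn. Low shoot counts limit the ratios: 34 of the 97 genes had 10 shoot reads or fewer.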

Other observations

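Below the minimum of 5 RPKM lay a further 121 genes at 1 to 5 RPKM in the rhizome that were at least 8-fold higher there. They had a median of 38 rhizome reads and a median length of 1264 bases, and 36 of them had 0 shoot reads. The counting interval lay wholly at or above 8-fold for 26 of the 121. The IDs of 5 of the 97 genes (5.15%) do not end in 0, against 493 of the 11154 genes (4.42%) with 5 RPKM or more in the rhizome.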
